A study of Homo sapiens with 12 samples.

Results

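The 49 genes described here work in homologous recombination, the Fanconi pathway and the DNA damage checkpoint, with 8 from single-strand break repair and end joining. They were taken by symbol from a list of named genes, and all 49 were present among the 16384 genes of the count tables. The same 49 passed the filter on low counts, which 12645 genes passed. RNA was sequenced in MDA-MB-231, an established human triple-negative breast cancer cell line labelled as wild type, in 12 libraries of 4 groups with 3 libraries each. The control cells received DMSO, the vehicle. Cells of the CAR group were treated with CAR at 10 µmol/L; the series title names cardamonin, a plant chalcone. Cells of the JQ1 group were treated with JQ1 at 25 µmol/L, a compound that blocks BET bromodomains from binding acetylated histones. Combination cells were given both agents at those concentrations. The labels give no time of treatment, and all groups share a single cell line.

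Homologous recombination repairs a DNA break by copying the sister chromatid. The ends are first cut back to single strands, BRCA1 with BARD1 and PALB2 brings BRCA2 to them, and BRCA2 loads the recombinase that searches for the matching sequence. The Fanconi core complex, with the conjugating enzyme UBE2T, attaches ubiquitin to the FANCD2 and FANCI clamp when a crosslink stalls a replication fork. ATM responds to broken ends and ATR, with ATRIP, to single-stranded DNA, and they act through the kinases CHEK2 and CHEK1. Many of these genes are transcribed mainly in cells that are about to copy or are copying their DNA, and E2F factors are known to bind many of their promoters.

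To show what lies just upstream of genes at the 2 ends of the JQ1 response, stretches of 80 bases are printed for the 4 members with the largest rise and the 4 with the largest fall in JQ1 against DMSO. Each runs 5′ to 3′ on the gene's own strand, from 70 bases before the first start listed by RefSeq to 10 bases after it, that is, across the promoter into the first exon. Capitals mark matches on either strand to 3 sets of letters associated with cell cycle promoters. The E2F-type set holds TTCCCGC together with the variant TTGGCGC and the further variants TTGCCGC as well as TTCGCGC. The NF-Y-type letters are CCAAT. The CHR-type letters are TTTGAA. The first 4 genes listed rose in JQ1 and the last 4 fell.
ATM: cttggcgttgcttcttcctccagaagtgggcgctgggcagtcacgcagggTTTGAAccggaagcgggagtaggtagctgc
ATR: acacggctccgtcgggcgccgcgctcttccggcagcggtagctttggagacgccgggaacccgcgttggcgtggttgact
RAD50: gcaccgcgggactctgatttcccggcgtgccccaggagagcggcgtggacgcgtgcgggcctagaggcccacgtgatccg
RNF168: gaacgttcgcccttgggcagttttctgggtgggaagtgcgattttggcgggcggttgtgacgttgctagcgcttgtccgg
FANCD2: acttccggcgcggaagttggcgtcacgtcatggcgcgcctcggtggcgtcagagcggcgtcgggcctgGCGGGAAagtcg
RAD51AP1: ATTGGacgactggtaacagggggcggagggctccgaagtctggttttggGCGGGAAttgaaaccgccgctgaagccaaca
RAD54L: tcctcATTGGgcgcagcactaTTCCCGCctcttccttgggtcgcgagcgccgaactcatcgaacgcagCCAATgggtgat
RAD51D: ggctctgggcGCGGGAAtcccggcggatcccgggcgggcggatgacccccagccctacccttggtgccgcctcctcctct
On GRCh38.p14 these stretches lie at chr11:108222997-108223076 on the plus strand (ATM), chr3:142578724-142578803 on the minus strand (ATR), chr5:132556907-132556986 on the plus strand (RAD50) and chr3:196503759-196503838 on the minus strand (RNF168). Those of the genes that fell lie at chr3:10026367-10026446 (FANCD2), chr12:4538820-4538899 (RAD51AP1) and chr1:46247618-46247697 (RAD54L), all on the plus strand, and at chr17:35119749-35119828 on the minus strand (RAD51D). Each of the 4 stretches from genes that fell held 1 match to the E2F-type letters, and none of the 4 from genes that rose held any. Those genes were picked by their change in JQ1, and no share over other genes was counted for this length. The 4 that rose did so by 0.13 to 0.35 on the log2 scale, and their calls were lost with total count scaling. In wider windows, described below, 16 of 23 members at least 2-fold lower in JQ1 held the letters, and 8 of 21 others. The genes the results turn on lie, on GRCh38 with GENCODE 29, at chr3:10026414-10101930 (FANCD2), chr12:4538798-4560048 (RAD51AP1), chr17:43044295-43170245 (BRCA1), chr13:32315474-32400266 (BRCA2), chr11:108222484-108369102 (ATM) and chr2:58159243-58241372 (FANCL). A match is a string of letters and shows neither a bound site nor a cause.

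Library totals ran from 17449715 to 19754456 counts, and no member had fewer than 15 counts in any library. The cell line's markers were as labelled: VIM, CD44 and EGFR were abundant in all 12 libraries, and ESR1, PGR and CDH1 had at most 13 counts in any. HEXIM1, a transcript that BET inhibitors are known to raise, rose 4.2-fold in JQ1 and 3.63-fold in Combination, and the stress enzyme HMOX1 rose 7.33-fold in CAR. HMOX1 fell 2.16-fold in JQ1. MYC, checked with them, was not called in JQ1 (1.04-fold higher) and rose 1.29-fold in Combination and 1.36-fold in CAR. FTL, also checked, rose 1.97-fold in CAR, 6.16-fold in JQ1 and 13.2-fold in Combination. Among the libraries, 2 stood apart. In DMSO replicate 3 long transcripts were low. Each gene's deviation from the mean of the group's other libraries had a Spearman correlation with length of -0.74 there, across 6056 genes. It was 0.608 and 0.655 in the other DMSO libraries, whose comparison includes replicate 3, and -0.275 to 0.251 in the drug libraries. The low level in DMSO replicate 3 touches long members such as ATM and BRCA2, whose transcripts measure 13.1 and 12 kb. Combination replicate 1 held 1429 counts of the liver transcript ALB, against 4 to 10 in the other 11 libraries, and of the other liver markers 58 counts of TTR, 166 of FGB, 42 of APOA1 and 165 of SERPINA1. Without these 2 libraries, members were called 20 higher and 12 lower in CAR against DMSO, 4 and 42 in JQ1 against DMSO, 3 and 41 in Combination against DMSO, 9 and 15 in Combination against JQ1, and 4 and 43 in Combination against CAR. For the interaction, defined where it is described, they were 5 and 18. Over all 12708 genes tested then, 7863 were called in CAR against DMSO, 47.1% of them higher, and 10733 in JQ1 against DMSO, 49.7% higher. Combination against DMSO had 10750 (49.9% higher), Combination against JQ1 7040 (50.4%) and Combination against CAR 10915 (49.7%). The interaction had 5547 (52.1%).

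JQ1 alone lowered most of the damage response genes. Against DMSO, 41 of the 49 members fell, 4 rose and 4 were not called, with the threshold at an adjusted p of 0.05 (quasi-likelihood test of edgeR, Benjamini-Hochberg). Errors given with log2 fold changes are standard errors from that fit, and levels are CPM, counts relative to the scaled library total. No label says that the libraries of a group are from different cultures, and the p-values therefore rest on a spread that may be technical. The median log2 fold change of the members was -1.02, with a range from -4.3 to 0.35, and 26 fell at least 2-fold. Of all genes tested, 83.7% were called, 42.2% lower and 41.5% higher, 18.2% lower by at least 2-fold and 11.7% higher by that much, and their median was -0.01. No member rose 2-fold in any comparison. The JQ1 and DMSO libraries did not overlap for 45 members, against 83.2% of all genes. MDC1 lay just inside the 2-fold line, at -1, and RBBP8 just outside it, at -0.92. As a share of all counts, the 49 members made up 0.375% to 0.385% in DMSO and 0.22% to 0.225% in JQ1. In bulk RNA, fewer cells in a given phase and less RNA per cell cannot be told apart.

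Genes of DNA replication and mitosis were also lower in JQ1, where 42.2% of all genes were called lower, 18.2% by at least 2-fold. All 24 on that list, among them MCM5, CDC45, TOP2A, MKI67 and PLK1, were called lower in JQ1, with a median log2 fold change of -3.15, and 23 fell at least 2-fold. Their summed share of all counts was 0.667% to 0.707% for DMSO libraries and 0.69% to 0.712% for CAR libraries. For JQ1 libraries the share was 0.0961% to 0.101%, and for Combination libraries 0.0786% to 0.0896%, with none of the 24 at 0 in any library. Their part in the change of the repair genes was not tested.

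**Figure D1:**
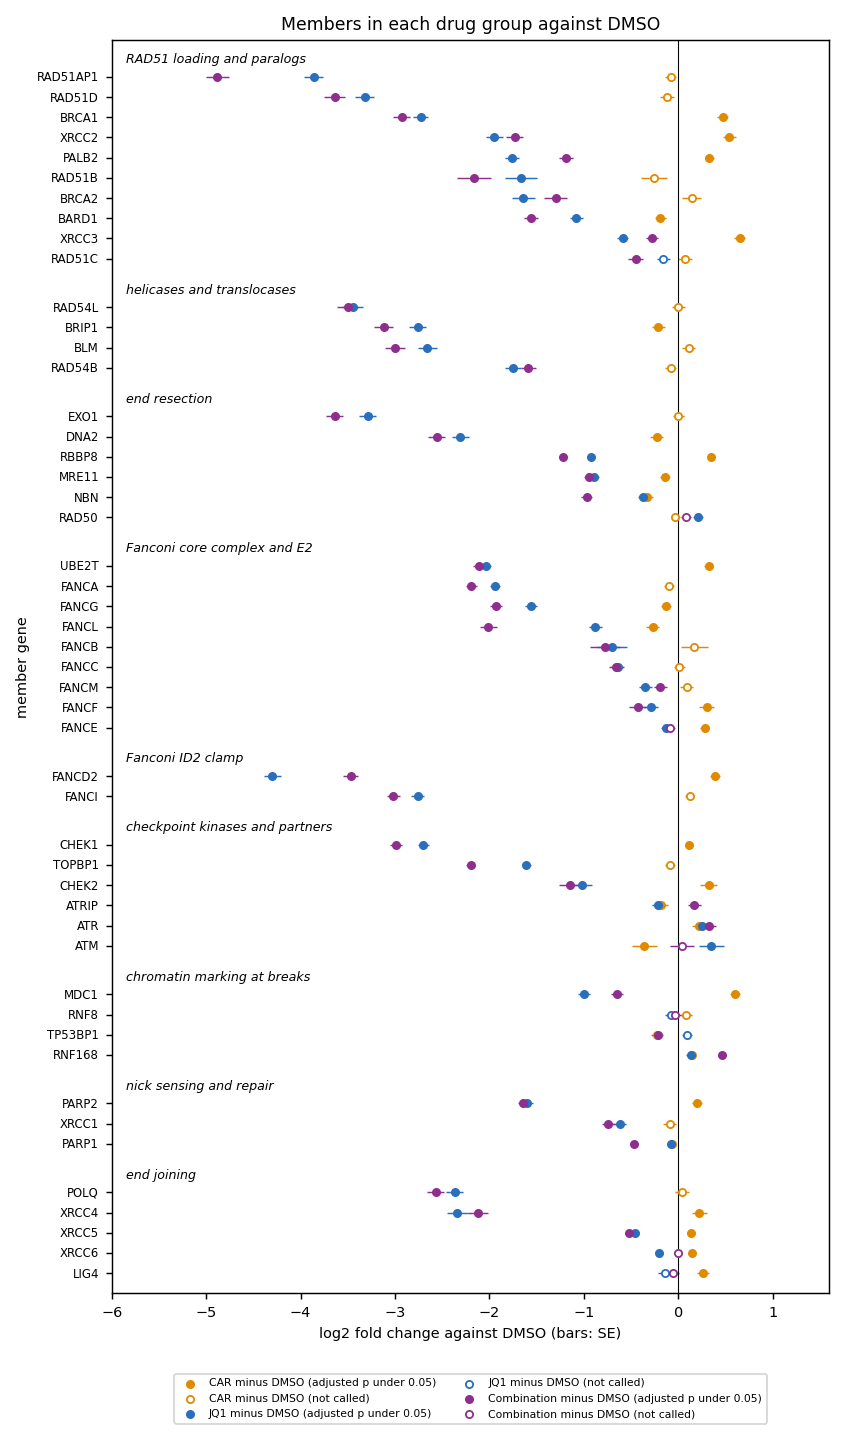
Log2 fold change of each of the 49 members against DMSO in CAR (orange), JQ1 (blue) and Combination (purple), grouped by role; bars are standard errors from the edgeR fit, filled points had an adjusted p under 0.05 and open points did not. JQ1 and Combination values lie mostly to the left of 0, down to -4.88 for RAD51AP1 in Combination, while all CAR values lie between -0.36 and 0.65.

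Of the 10 genes that load the recombinase or are its paralogs, 9 fell in JQ1 and 10 in Combination, with medians of -1.71 and -1.65. Over all genes, 42.2% were called lower in JQ1 and 42.8% in Combination. RAD51AP1, which helps the recombinase to invade the matching DNA, was measured at 36.7, 38.6 and 38.8 CPM with DMSO, 34.9, 35.9 and 37.5 with CAR alone, 3.09, 2.38 and 2.33 with JQ1 alone and 0.886, 1.34 and 1.64 with the combination. The JQ1 and Combination libraries did not overlap with the others or with each other. Its log2 fold change in JQ1 was -3.86 ± 0.10 (SE, adjusted p = 3.63e-19), and in Combination it was the lowest of all members at -4.88 ± 0.12 (adjusted p = 7.47e-20), or 29.4-fold lower. RAD51D, a recombinase paralog that forms a complex with RAD51B, RAD51C and XRCC2, had 25.8, 26.1 and 25.5 CPM with DMSO, 25.7, 23.2 and 22.5 with CAR alone, 2.35, 2.38 and 3.03 with JQ1 alone and 1.83, 2.03 and 2.34 with the combination. It fell 10-fold in JQ1 and 12.4-fold in Combination. RAD51B and XRCC2 of the same complex fell as well in JQ1, with log2 fold changes of -1.67 and -1.95, but RAD51C did not pass the test there (-0.16 ± 0.07, 95% interval -0.33 to 0.01). RAD51C fell in Combination, by 0.45 on the log2 scale.

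BRCA1 and BRCA2 fell by different amounts. BRCA1, the ubiquitin ligase that promotes resection and recruits PALB2, was measured at 57.6, 56.4 and 47.7 CPM with DMSO, 73.1, 73.8 and 76.7 with CAR alone, 8.96, 7.84 and 7.45 with JQ1 alone and 6.44, 7.73 and 7.08 with the combination. The lowest DMSO or CAR library had 47.7 CPM and the highest JQ1 or Combination library 8.96. The log2 fold change was -2.73 ± 0.08 in JQ1 (6.64-fold, adjusted p = 7.18e-18) and -2.93 ± 0.09 in Combination. BRCA2, which carries the recombinase to single-stranded DNA, had 50.6, 55.9 and 37.5 CPM with DMSO, 51.2, 53.3 and 54.1 with CAR alone, 16.3, 15.3 and 14.3 with JQ1 alone and 20.4, 18.2 and 19.8 with the combination, with DMSO replicate 3 the lowest of the control libraries. It fell 3.12-fold in JQ1 (log2 -1.64 ± 0.12, adjusted p = 1.42e-08) and 2.46-fold in Combination, and without DMSO replicate 3 the JQ1 value was -1.79. PALB2, the bridge between BRCA1 and BRCA2, had 24.5, 25.2 and 24 CPM with DMSO, 30.8, 30.7 and 30.9 with CAR alone, 7.47, 6.96 and 7.34 with JQ1 alone and 11.1, 10.6 and 10.5 with the combination. Its JQ1 libraries lay lowest and its Combination libraries between those and DMSO. BARD1, the partner of BRCA1, was at -1.08 in JQ1 and -1.56 in Combination. XRCC3, another paralog, was the least lowered of this group in Combination, at -0.28 ± 0.06, and 45.3% of its exonic length overlaps other genes, whose reads may not be separable.

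All 4 helicases and translocases fell at least 2-fold in JQ1 and in Combination, where 18.2% and 20.3% of all genes did. RAD54L, a motor protein that works with the recombinase during strand exchange, was measured at 34.9, 32.9 and 31.2 CPM with DMSO, 32.3, 32.5 and 34.3 with CAR alone, 2.88, 2.87 and 3.32 with JQ1 alone and 2.24, 2.67 and 3.81 with the combination. It fell 10.9-fold in JQ1 and 11.3-fold in Combination. BRIP1, the helicase bound by BRCA1, fell 6.76-fold in JQ1, and BLM, the helicase that resolves joined DNA molecules, fell 6.32-fold. RAD54B, a relative of RAD54L, fell 3.37-fold in JQ1, and other genes overlap 63.3% of its exonic length.

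The nucleases and end resection factors were split. EXO1, an exonuclease that digests broken ends over long distances, was measured at 59.2, 62.5 and 61.2 CPM with DMSO, 58.9, 62.7 and 61.9 with CAR alone, 7.15, 5.03 and 6.52 with JQ1 alone and 4.61, 4.24 and 5.8 with the combination. Its fall was 9.77-fold in JQ1 (log2 -3.29 ± 0.09, adjusted p = 4.38e-19) and 12.5-fold in Combination. DNA2, a nuclease and helicase with a similar task, fell 4.94-fold in JQ1. The initiators of resection changed less. RBBP8, the cofactor of the MRE11 nuclease, fell 1.89-fold in JQ1 and MRE11 itself 1.86-fold. NBN, the subunit that links MRE11 to ATM, fell by 0.37 in JQ1 and by 0.97 in Combination on the log2 scale. RAD50, the subunit that bridges the ends, had 88.9, 86.1 and 78.5 CPM with DMSO, 76.8, 85.9 and 85.2 with CAR alone, 95.5, 101 and 96.8 with JQ1 alone and 91, 87.8 and 88.3 with the combination. It rose slightly in JQ1, by 0.21 ± 0.05 (adjusted p = 6.23e-04), and was at 0.08 ± 0.05 in Combination, where it was not called and was at -0.13 with total count scaling. Other genes overlap 90.6% of the exonic length of RAD50.

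In JQ1 both clamp genes of the Fanconi pathway had lower log2 fold changes than any gene of the core complex. FANCD2, the clamp subunit whose ubiquitin mark is the usual readout of the pathway, was measured at 43.1, 45.8 and 43.8 CPM with DMSO, 58.9, 57 and 57.6 with CAR alone, 1.97, 2.65 and 2.1 with JQ1 alone and 3.78, 4.13 and 4.04 with the combination. No library of JQ1 or Combination came near those of DMSO and CAR, and the Combination libraries all lay above those of JQ1. It was the member that fell most in JQ1, 19.7-fold (log2 -4.30 ± 0.09, adjusted p = 6.81e-21), and it fell 11.1-fold in Combination. Its partner FANCI fell 6.76-fold in JQ1 and 8.09-fold in Combination. The 8 core complex genes and UBE2T were all called lower in JQ1, with a median of -0.7 and values from -2.04 (UBE2T) to -0.13 (FANCE). Over all genes, 42.2% were called lower there. FANCA and FANCG, which sit in the same part of the core, fell 3.84-fold and 2.95-fold. FANCB (-0.70), FANCC (-0.64), FANCF (-0.29) and FANCM (-0.35) fell less than 2-fold. FANCM was also called in Combination (-0.19), but not without Combination replicate 3 (-0.15). FANCE lost its call without any of 4 libraries (DMSO replicate 1 or 2, JQ1 replicate 1 or 2), with values of -0.13 to -0.09 then. FANCL, the ubiquitin ligase subunit, had 21.8, 21.7 and 23.6 CPM with DMSO, 19.3, 17.9 and 18.5 with CAR alone, 11.1, 13.1 and 12.2 with JQ1 alone and 5.79, 5.7 and 5.21 with the combination. It fell 1.85-fold in JQ1 and 4.02-fold in Combination.

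Among the checkpoint kinases, ATM and ATR were called higher in JQ1, and CHEK1 and CHEK2, on which they act, fell. ATR, the kinase that responds to single-stranded DNA, was measured at 59.8, 59.6 and 47.5 CPM with DMSO, 65.4, 62.7 and 66.6 with CAR alone, 67.9, 67.2 and 63.6 with JQ1 alone and 69.2, 68.8 and 72.4 with the combination. DMSO replicate 3 was the lowest library, and all JQ1 and Combination libraries lay above all DMSO libraries. ATR rose by 0.25 ± 0.07 in JQ1 (adjusted p = 0.00157) and by 0.33 ± 0.07 in Combination (adjusted p = 9.95e-05) on the log2 scale. Without DMSO replicate 3 these values were 0.15 and 0.24, both still called. With libraries scaled by total count they were 0.13 and 0.13, and neither was called (adjusted p = 0.0643 in JQ1 and 0.0751 in Combination). CHEK1, the kinase activated by ATR, had 95.7, 97.7 and 97.8 CPM with DMSO, 101, 104 and 108 with CAR alone, 15.2, 14.9 and 14.7 with JQ1 alone and 11.8, 11.4 and 13.6 with the combination. It fell 6.51-fold in JQ1 (log2 -2.70 ± 0.06, adjusted p = 9.89e-21) and 7.93-fold in Combination. TOPBP1, the activator of ATR, fell 3.05-fold in JQ1 and 4.6-fold in Combination, and CHEK2, the kinase downstream of ATM, fell 2.03-fold and 2.22-fold. ATRIP, the partner that brings ATR to DNA, had 14.3, 14.4 and 14 CPM with DMSO, 12.8, 12.2 and 12.8 with CAR alone, 11.9, 12.4 and 12.6 with JQ1 alone and 15, 16.4 and 16.5 with the combination. It was called lower in JQ1 (-0.21 ± 0.07) and higher in Combination (0.17 ± 0.07, adjusted p = 0.0324), a value that was -0.04 with libraries scaled by total count and lost its call without DMSO replicate 1, 2 or 3 or Combination replicate 2 or 3, at 0.14 to 0.17.

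ATM, the kinase that responds to broken ends, was measured at 144, 139 and 95.8 CPM with DMSO, 98.4, 97.5 and 98.2 with CAR alone, 158, 170 and 155 with JQ1 alone and 132, 133 and 126 with the combination. DMSO replicate 3 lay near the CAR libraries and far below the other 2 DMSO libraries. Against DMSO the log2 fold change was 0.35 ± 0.13 in JQ1 (adjusted p = 0.0239) and 0.04 ± 0.13 in Combination (95% interval -0.25 to 0.34, not called). Without DMSO replicate 3 the JQ1 value was 0.19 (adjusted p = 5.97e-06) and the Combination value turned to -0.12 (adjusted p = 0.00459). Without JQ1 replicate 2, the JQ1 value of 0.32 was not called.

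The genes that mark chromatin around breaks changed little, apart from MDC1. MDC1, the adaptor that binds phosphorylated histone H2AX, was measured at 181, 175 and 147 CPM with DMSO, 259, 251 and 255 with CAR alone, 85.9, 82.6 and 83.2 with JQ1 alone and 107, 108 and 107 with the combination. It fell 2-fold in JQ1 and 1.56-fold in Combination. RNF168, a ubiquitin ligase that marks histones next to breaks, had 58.6, 54.6 and 56.3 CPM with DMSO, 62.2, 62.5 and 61.9 with CAR alone, 63.1, 60.9 and 61.4 with JQ1 alone and 78.4, 74.5 and 79.7 with the combination. The Combination libraries lay above all others, and RNF168 rose by 0.13 ± 0.05 in JQ1 (adjusted p = 0.0127) and by 0.46 ± 0.04 in Combination (adjusted p = 3.58e-09) on the log2 scale. The JQ1 call was lost without DMSO replicate 2 (0.10) or JQ1 replicate 1 (0.11). RNF8, the ligase that acts before RNF168, was not called in JQ1 (-0.08 ± 0.06) or Combination (-0.03 ± 0.06). TP53BP1, which protects ends from resection, was at 0.09 ± 0.05 in JQ1, not called, and fell by 0.22 in Combination.

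PARP1 and PARP2, enzymes that sense broken strands, differed. PARP1 was measured at 294, 301 and 300 CPM with DMSO, 281, 286 and 285 with CAR alone, 278, 286 and 279 with JQ1 alone and 219, 210 and 215 with the combination. Its JQ1 libraries lay just under those of DMSO, with a log2 fold change of -0.08 ± 0.03 (adjusted p = 0.0251) that lost its call without DMSO replicate 2 or JQ1 replicate 1 or 3, at -0.08 each time. In Combination it fell by 0.47 ± 0.03 (adjusted p = 1.98e-11). PARP2 fell 3.04-fold in JQ1 and 3.12-fold in Combination, and the scaffold XRCC1 fell 1.54-fold and 1.67-fold.

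Among the end joining genes, the Ku subunits XRCC5 and XRCC6 had the highest levels of all members per kilobase of transcript, with means of 112 and 196 CPM per kb in DMSO, ahead of PARP1 at 75.3 and UBE2T at 68.9. XRCC6 was measured at 522, 512 and 562 CPM with DMSO, 581, 594 and 580 with CAR alone, 472, 456 and 459 with JQ1 alone and 536, 527 and 532 with the combination. It fell by 0.20 ± 0.04 in JQ1 (adjusted p = 2.93e-05) and did not differ detectably from DMSO in Combination (0.00 ± 0.04, 95% interval -0.09 to 0.08). XRCC5 fell by 0.46 in JQ1. XRCC4, the scaffold of the end joining ligase, fell 5.05-fold in JQ1, whereas the ligase LIG4 was not called (-0.14 ± 0.07, 95% interval -0.30 to 0.02). POLQ, the polymerase of the alternative end joining route, fell 5.16-fold in JQ1.

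The 4 members called higher in JQ1 (ATM, ATR, RAD50 and RNF168) did not keep that call with libraries scaled by total count, a scaling under which the median of all genes was -0.127 in JQ1 against DMSO, -0.205 in Combination against DMSO and -0.152 in Combination against CAR. RNF168 was then at 0.01 and RAD50 at 0.09. Each of the 41 called lower in JQ1 kept its call under all 3 other scalings, and 39 of 41 kept it in every alternative at the same threshold. In Combination 40 members fell against DMSO, where 42.8% of all genes were called lower, and 3 rose, against 42.6%. Over all genes 85.4% were called. The median of the members was -1.22, and 27 fell at least 2-fold, against 20.3% of all genes, with 12.5% of all genes at least 2-fold higher. Libraries did not overlap for 44 members, against 84.8% of all genes. The share of counts taken by members was 0.199% to 0.205%.

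**Figure D2:**
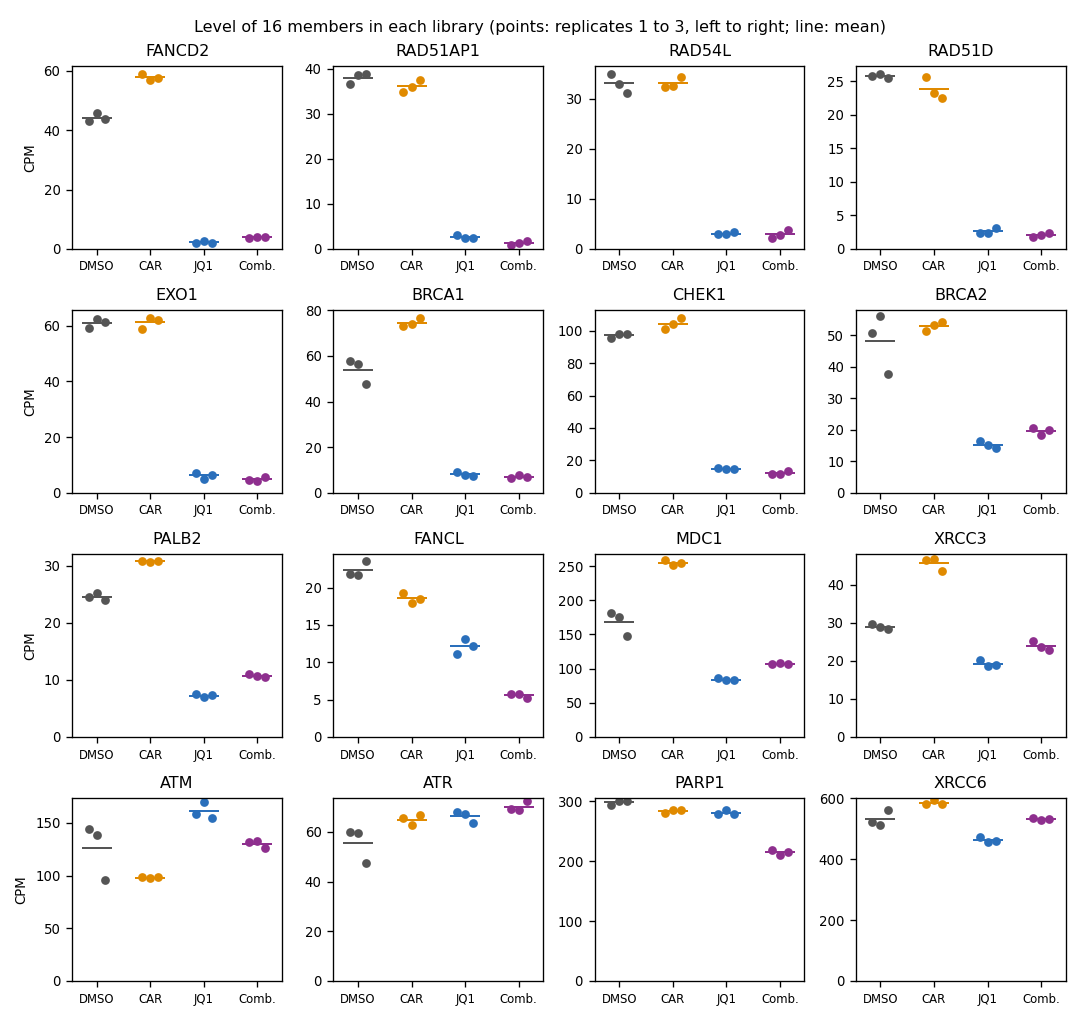
CPM of 16 members in each of the 12 libraries, with replicates 1 to 3 from left to right and a line at the mean; each vertical axis starts at 0. FANCD2, RAD51AP1, RAD54L and RAD51D lie under 5 CPM in JQ1 and Combination, PARP1 lies between 278 and 301 CPM in DMSO, CAR and JQ1, and ATM and BRCA2 are low in DMSO replicate 3.

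CAR alone had smaller effects, in both directions. Against DMSO 19 members rose, 10 fell and 20 were not called, against 57.3% of all genes called, 27.3% higher and 30.1% lower. No member changed 2-fold, where 0.925% of all genes were at least 2-fold higher and 3.45% lower. Libraries did not overlap for 33 members, against 59.9% of all genes. The median was 0.08, against -0.02 over all genes. With total count scaling the split was 14 higher and 15 lower, where the share of higher among all called genes moved from 47.6% to 35.7%. The largest rises were in XRCC3, MDC1, XRCC2 and BRCA1. XRCC3 was measured at 29.7, 28.9 and 28.4 CPM with DMSO, 46.4, 46.7 and 43.7 with CAR alone, 20.3, 18.6 and 18.9 with JQ1 alone and 25.3, 23.7 and 22.8 with the combination. It rose by 0.65 ± 0.06 on the log2 scale (adjusted p = 2.63e-09), with all CAR libraries above all DMSO libraries. MDC1 rose by 0.60 ± 0.05 (adjusted p = 1.06e-08), or 0.52 without DMSO replicate 3. XRCC2 had 34.5, 37.8 and 29.5 CPM in DMSO and 48.1, 50.2 and 49.6 in CAR, a rise of 0.54 ± 0.07 (adjusted p = 7.06e-07). BRCA1 rose by 0.47 ± 0.06 (adjusted p = 1.55e-06).

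Further members raised by CAR came from several roles. FANCD2 rose by 0.39, RBBP8 by 0.35, PALB2 by 0.33, UBE2T and CHEK2 by 0.32 each, FANCF by 0.30 and FANCE by 0.28 on the log2 scale. LIG4, ATR, XRCC4, PARP2, XRCC6, RNF168, XRCC5 and CHEK1 rose by 0.11 to 0.26. ATR was at 0.12 without DMSO replicate 3 (adjusted p = 0.0192). The calls of CHEK1 (0.09 to 0.11) and XRCC4 (0.15 to 0.23) were lost when DMSO replicate 1 or 2, or CAR replicate 2 or 3, was left out. That of RNF168 was lost without DMSO replicate 2 (0.11). With total count scaling CHEK1, RNF168, XRCC4, XRCC5 and XRCC6 were at 0.04 to 0.16 and not called. In all, 14 of the 19 kept their call in every alternative at the same threshold.

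Members lowered by CAR were fewer and less firmly called. NBN had 77.3, 80 and 73.3 CPM in DMSO and 58.9, 60.3 and 64.9 in CAR, and fell by 0.33 ± 0.06 (adjusted p = 3.68e-05). FANCL fell by 0.27 ± 0.07 on the log2 scale. TP53BP1 had 101, 96.5 and 82.6 CPM in DMSO and 79.9, 78.8 and 79.9 in CAR, a change of -0.23 ± 0.06, and DNA2 was at -0.23 ± 0.07. Those 4 kept their call in every alternative at the same threshold. The other 6 did not keep it when single libraries were left out: BRIP1 (-0.16 without DMSO replicate 1), BARD1 (-0.15 without DMSO replicate 2, -0.17 without CAR replicate 3), MRE11 (-0.13 to -0.12 without DMSO replicate 1 or CAR replicate 2 or 3), FANCG (-0.13 to -0.10 without DMSO replicate 2, CAR replicate 2 or 3 or Combination replicate 3), ATRIP (-0.19 to -0.15 without any of the DMSO or CAR libraries) and ATM. ATM fell by 0.36 ± 0.13 (adjusted p = 0.0355). Its value was -0.52 without DMSO replicate 3 (adjusted p = 7.8e-17), and -0.26 or -0.29 without DMSO replicate 1 or 2 and -0.36 without CAR replicate 1, 2 or 3, none of which was called. BRCA2 did not pass the test (0.14 ± 0.10, 95% interval -0.10 to 0.38), RAD54L was at 0.00 (95% interval -0.16 to 0.16) and PARP1 at -0.07 ± 0.03 (adjusted p = 0.0858).

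Adding CAR to JQ1 raised FANCD2 and PALB2 and lowered FANCL and RAD51AP1, among others. In Combination minus JQ1, 7 members rose, 16 fell and 26 were not called, where 51.9% of all genes were called, 26% higher and 25.9% lower. Libraries did not overlap for 28 members, against 62.3% of all genes. The median of the members was -0.13, against 0 over all genes. With total count scaling 26 members were called lower and 7 higher, where 6783 of the 12645 genes were called, 32.9% of them higher. FANCD2 rose most, by 0.83 ± 0.14 on the log2 scale (adjusted p = 4.01e-05), from a mean of 2.24 CPM in JQ1 to 3.98 in Combination, while DMSO had 44.2. PALB2 rose by 0.57 ± 0.08, ATRIP by 0.38 ± 0.07, MDC1 by 0.35 ± 0.06, RNF168 by 0.33 ± 0.04, XRCC3 by 0.31 ± 0.07 and XRCC6 by 0.20 ± 0.04. All 7 kept their call in every alternative at the same threshold.

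FANCL and RAD51AP1 fell at least 2-fold when CAR was added to JQ1, where 2.44% of all genes did, with 1.29% at least 2-fold higher. The change of FANCL was -1.12 ± 0.10 (adjusted p = 4.13e-09) and that of RAD51AP1 was -1.01 ± 0.20 (adjusted p = 2.4e-04). NBN had 63.4, 58.6 and 55.9 CPM in JQ1 and 41.7, 39.4 and 36.8 in Combination, and TOPBP1 had 39, 40 and 40.4 and 26.2, 26.1 and 26.9. Both fell by 0.59 ± 0.06. Smaller falls were called for BARD1 (-0.49), PARP1 (-0.39), FANCG (-0.36), TP53BP1 (-0.31), RAD51C (-0.30), RBBP8 (-0.29), CHEK1 (-0.28) and FANCA (-0.25). The calls of BRIP1 (-0.36), EXO1 (-0.35), FANCI (-0.26) and RAD50 (-0.14) were each lost without any of 4 libraries: for BRIP1 JQ1 replicate 1 or 2 or Combination replicate 1 or 2 (-0.38 to -0.24), for EXO1 JQ1 replicate 1 or 3 or Combination replicate 1 or 2 (-0.32 to -0.24), for FANCI the same 4 as for EXO1 (-0.26 to -0.17), with -0.41 without Combination replicate 3, and for RAD50 JQ1 replicate 2 or 3 or Combination replicate 2 or 3 (-0.14 to -0.11). BRCA1 was not called (-0.19 ± 0.12), nor were ATM (-0.31 ± 0.13, adjusted p = 0.066) and BRCA2 (0.34 ± 0.14, adjusted p = 0.0571). ATM and BRCA2 were both called without DMSO replicate 3, at -0.31 and 0.35, although that library is in neither group; the fit shares 1 estimate of each gene's spread over all groups.

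For 24 members the effect of CAR differed with and without JQ1, by the interaction term (Combination minus JQ1, less CAR minus DMSO). It was called lower for 21 members and higher for 3, where 38.3% of all genes were called, 18.2% lower and 20.1% higher. None of the members reached 2-fold, where 0.996% of all genes were lower and 2.18% higher by that much. The members' median was -0.23, against 0.01 over all genes. BRCA1 rose by 0.47 with CAR alone and was at -0.19 with CAR added to JQ1, an interaction of -0.66 ± 0.13 (adjusted p = 5.65e-04). RBBP8 had 100, 101 and 102 CPM in DMSO and 128, 129 and 128 in CAR, but 53.7, 54 and 52.2 in JQ1 and 44.1, 41.7 and 44.6 in Combination. It rose by 0.35 with CAR alone and fell by 0.29 with CAR added to JQ1, an interaction of -0.64 ± 0.06 (adjusted p = 4.73e-08). The interaction was -0.94 ± 0.21 for RAD51AP1 and -0.85 ± 0.12 for FANCL. It was positive for ATRIP (0.56 ± 0.10, adjusted p = 2.12e-04), which was called lower with CAR alone and rose with CAR added to JQ1, for FANCD2 (0.44 ± 0.15, adjusted p = 0.0259) and for RNF168 (0.19 ± 0.06, adjusted p = 0.0217). The call of ATRIP with CAR alone was lost when any single DMSO or CAR library was left out. Other genes overlap 29.6% of the exonic length of ATRIP and 26.7% of that of FANCL. The call of FANCD2 was lost when JQ1 replicate 1 or 3, or Combination replicate 2 or 3, was left out (0.35 to 0.43). That of RNF168 was lost without DMSO replicate 1, JQ1 replicate 2 or Combination replicate 3 (0.16 to 0.18). BRCA2 and ATM joined the members called higher without DMSO replicate 3, at 0.35 and 0.22.

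**Figure D3:**
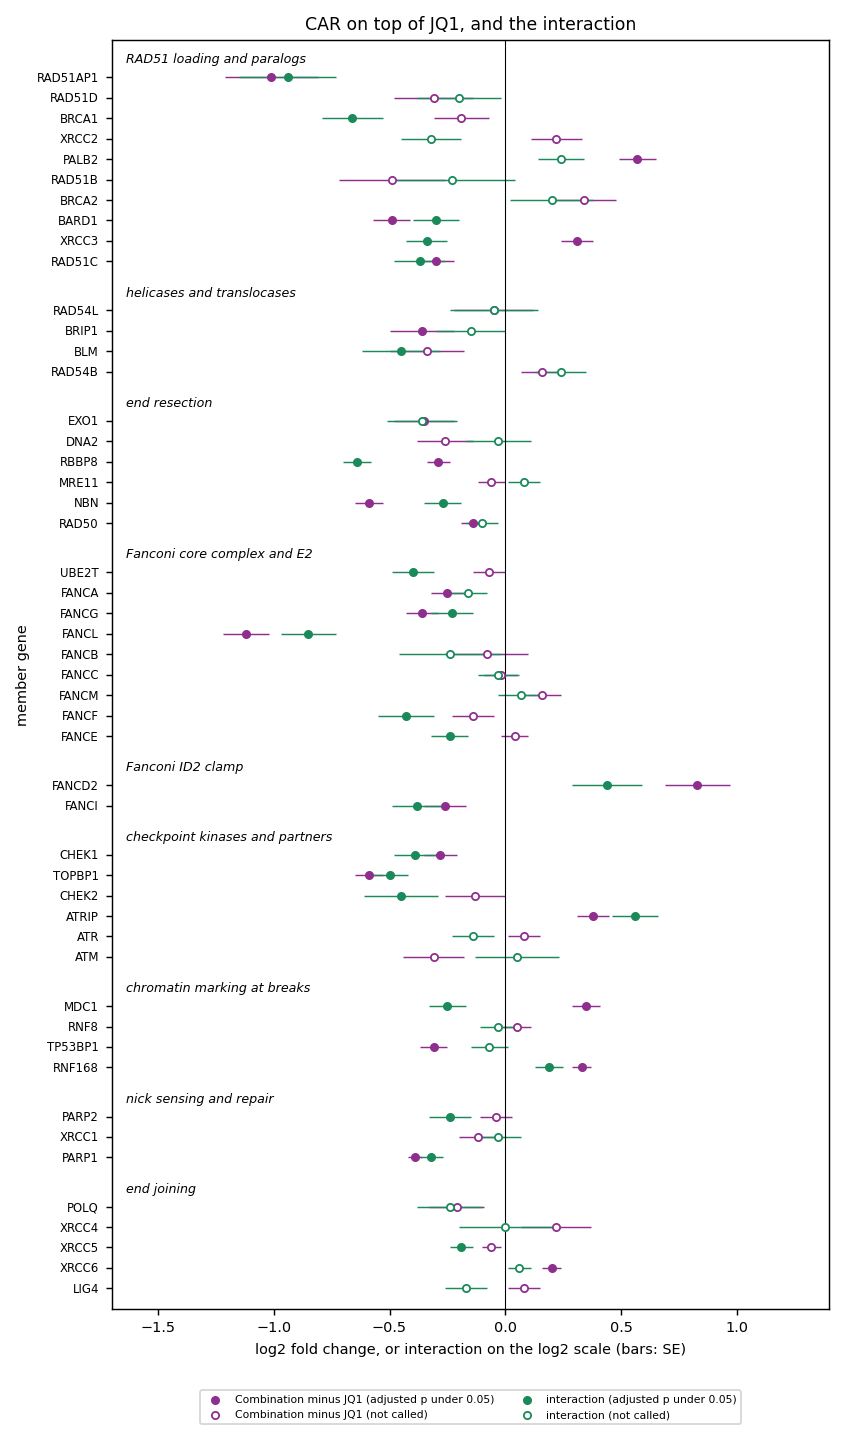
Log2 fold change of each member in Combination minus JQ1 (purple) and its interaction term (green), with standard errors, by role; filled points had an adjusted p under 0.05. FANCD2 and PALB2 lie farthest to the right in Combination minus JQ1, at 0.83 and 0.57, and FANCL and RAD51AP1 farthest to the left, at -1.12 and -1.01.

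Adding JQ1 to CAR lowered most members. In Combination minus CAR, 42 members fell, 3 rose and 4 were not called, where 85.4% of all genes were called, 43% lower and 42.4% higher. Libraries did not overlap for 48 members, against 87.4% of all genes. The median of the members was -1.47, and 28 fell at least 2-fold, against 19.9% of all genes, with 15.6% at least 2-fold higher. The log2 fold change was -4.80 for RAD51AP1, -3.86 for FANCD2, -3.65 for EXO1, -3.52 for RAD51D and -3.39 for BRCA1. ATM rose by 0.41 ± 0.13 (adjusted p = 0.0138), a call lost with total count scaling (0.26, adjusted p = 0.0722), ATRIP by 0.34 ± 0.07 and RNF168 by 0.32 ± 0.04. Without DMSO replicate 3, ATR (0.11) and RAD50 (0.11) were called higher too. TP53BP1 was at 0.01 ± 0.06, or -0.13 with total count scaling. All 42 that fell kept their call in every alternative at the same threshold. This comparison shares its Combination and CAR libraries with those above, so its values are no separate evidence.

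Ratios of counts between partner genes in the same library do not depend on how libraries are scaled. They were taken for 13 pairs chosen after the values had been seen, and have no test. The log2 ratio of BRCA1 to BARD1 was 0.98, 0.85 and 0.75 for the DMSO libraries and 1.51, 1.44 and 1.59 for CAR. It was -0.76, -0.82 and -0.82 for JQ1 and -0.59, -0.39 and -0.54 for Combination. BRCA1 thus had more counts than BARD1 in DMSO and CAR and fewer in the JQ1 groups, with no overlap. The ratio of FANCD2 to FANCI, the clamp subunits, was -1.18 ± 0.04 in DMSO, -0.91 ± 0.02 in CAR, -2.74 ± 0.26 in JQ1 and -1.62 ± 0.25 in Combination (SD, n = 3). The ratio of CHEK1 to ATR was 0.81 ± 0.20, 0.69 ± 0.05, -2.15 ± 0.03 and -2.52 ± 0.09 in the same order. XRCC4 to LIG4, the end joining ligase complex, went from -0.89 ± 0.15 in DMSO to -3.08 ± 0.02 in JQ1 and -2.96 ± 0.35 in Combination. The ratio of UBE2T to FANCL, enzyme and ligase of the Fanconi reaction, was 1.48 ± 0.04 in DMSO, 2.08 ± 0.06 in CAR, 0.33 ± 0.08 in JQ1 and 1.38 ± 0.12 in Combination. The ratio of the Ku subunits XRCC5 to XRCC6 was -0.33 ± 0.03 in DMSO, -0.34 ± 0.04 in CAR, -0.59 ± 0.03 in JQ1 and -0.85 ± 0.03 in Combination. In the MRE11 complex, NBN to RAD50 was lower in each drug group than in DMSO, at -0.14 ± 0.06, -0.43 ± 0.07, -0.73 ± 0.12 and -1.18 ± 0.07 from DMSO to Combination.

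**Figure D4:**
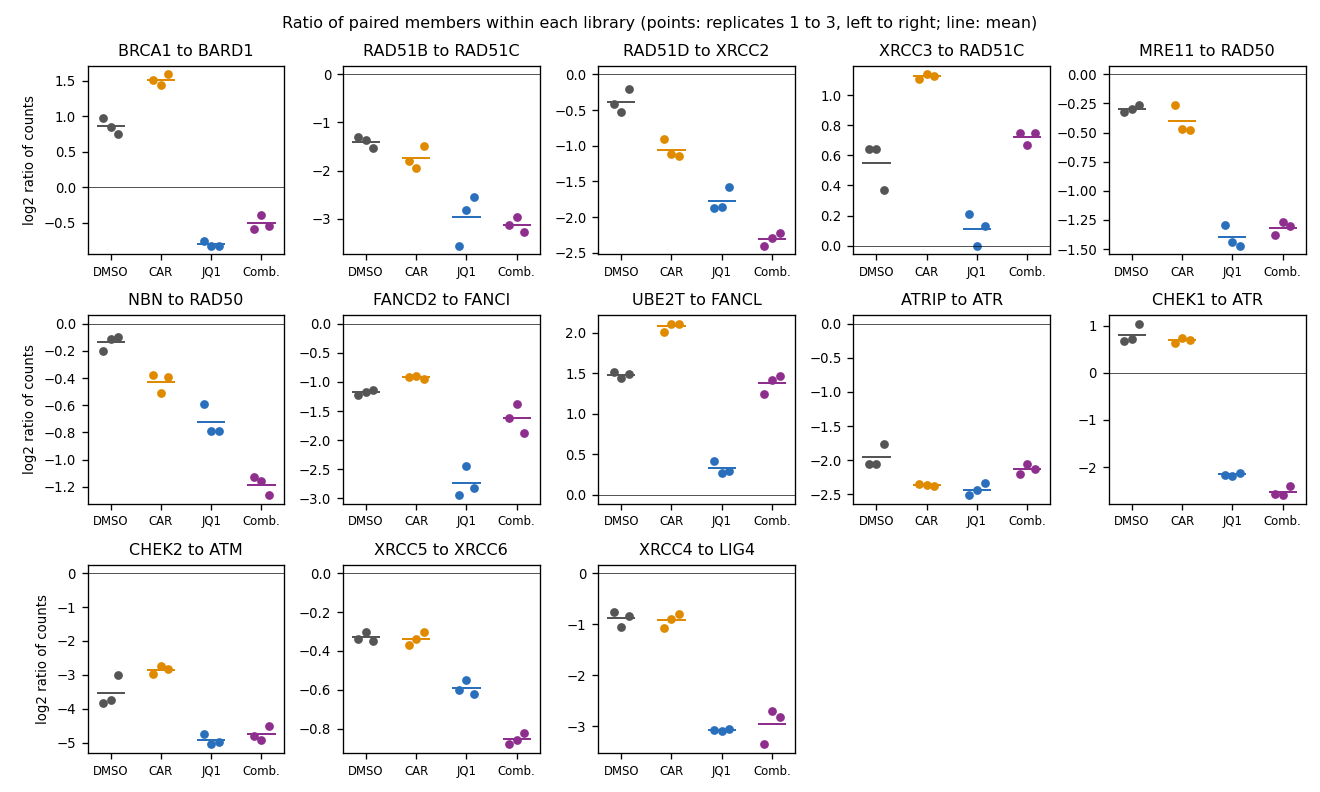
Log2 ratio of read counts between 13 pairs of partner members in each library, with replicates 1 to 3 from left to right and a line at the mean; axes differ between panels and a thin line marks equal counts where it is in range. BRCA1 to BARD1 and CHEK1 to ATR lie above 0 in DMSO and CAR and below 0 in JQ1 and Combination.

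Other genes of these pathways were counted from a list of 62 that holds none of the members. In JQ1 against DMSO 39 of the 62 fell and 15 rose, where 42.2% of all genes were called lower and 41.5% higher. Their median was -0.41, and 16 fell at least 2-fold, against 18.2% of all genes. The lowest was MND1, a helper of strand exchange, at -3.99 ± 0.15, followed by CDC25C and CDC25A, the phosphatases on which CHEK1 acts, at -3.80 ± 0.10 and -3.19 ± 0.10. Rises were led by SLX4, a scaffold for nucleases that cut joined DNA, at 1.13 ± 0.07, by the helicase HELQ at 0.82 ± 0.07 and by the clamp loader RAD17 at 0.77 ± 0.05. In Combination against DMSO, SLX4 rose by 1.24 and SWI5, an accessory of the recombinase, by 1. RMI2, a partner of BLM, fell by 0.94 ± 0.10 with CAR alone, from a mean of 16.8 to 8.8 CPM, and to 2.02 in JQ1 and 1.27 in Combination. With CAR alone 23 of the 62 rose and 8 fell, with a median of 0.11, where 27.3% of all genes were called higher and 30.1% lower. When CAR was added to JQ1, 15 of the 62 rose and 11 fell, where 26% of all genes were called higher and 25.9% lower. The rises were led by RAD9A (0.86 ± 0.08), a subunit of the checkpoint clamp, and EME1 (0.75 ± 0.12), a nuclease subunit.

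Promoter letters were counted for the 44 members with a RefSeq window of 250 bases before to 50 after a start. RAD54B, NBN, DNA2, FANCI and XRCC5 had no entry. The E2F-type letters were present for 24 of the 44 (54.5%), against 25.2% of 10253 tested genes with a window and 15.3% of all 27305 genes with a window. Counted per window and not per gene, the share was 13% of all 35116 windows. Of the members at least 2-fold lower in JQ1 16 of 23 (69.6%) held them, and of the other members 8 of 21 (38.1%). FANCD2, RAD51AP1, RAD54L, RAD51D, EXO1, BRCA1 and BRIP1 were among the 16, and the 7 without the letters were CHEK1, CHEK2, BRCA2, PALB2, RAD51B, UBE2T and XRCC4. The NF-Y-type letters were as common in members at least 2-fold lower (52.2%) as in the others (52.4%), with 43.3% of tested genes. The CHR-type letters were held by 17.4%, 14.3% and 13.8% in that order. GC content was taken from each gene's window with the highest value. Its median over genes was 61.3% in members at least 2-fold lower, 66% in the others and 67.3% in tested genes. These shares are descriptions, with no test, and a gene with several listed starts counts once if any window matches. No match says only that the letters are not in this window.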

How the data were processed

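The authors deposited 1 table of raw read counts per gene for each library. Reads were handled with Trimmomatic, HISAT2 and HTSeq on hg38, per the submitters' processing notes. Annotation and strand setting: not given in the sources used here. Reads of overlapping or antisense genes cannot be told apart. DMSO libraries were named from the treatment label. Genes were kept with edgeR's filter (minimum count 10, minimum total 15), libraries scaled by TMM (factors 0.921 to 1.08), and all 12 libraries fitted in edgeR 4.0.16 (R 4.3.3) by the quasi-likelihood test, with 8 residual degrees of freedom and Benjamini-Hochberg adjustment over 12645 genes (threshold 0.05). CPM relates the count to the TMM-scaled library total, and the SE is the size of the log2 fold change over the square root of F. A floor of 3 counts equals 0.152 to 0.172 CPM of the unscaled total and covers counting error only. Any member may be named; values per library follow the 4 largest and 4 smallest called changes in each contrast, with some added for their role, and other pathway genes are among the 3 largest called changes each way, of which 1 gene is not reported here. Promoters are RefSeq windows (GRCh38.p14), and lengths and positions are from GENCODE 29 (49 of 49 members). The fit was tested on simulated data in which a small set of genes changed in the JQ1 group alone. That test cannot decide how the fit and its scaling behave when most genes change, as in the real JQ1 libraries. DESeq2 1.42.0, other scalings and filters, the contrast's groups alone, a replicate block and leaving out each library were alternatives; leaving out both libraries that stood apart was chosen after seeing the data. Members and lists were chosen with earlier results of these data known.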

Additional observations from a re-analysis of the deposited data

Results flagged for a closer look

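For 24 members the effect of CAR with JQ1 differed from its effect without JQ1, by the interaction term of edgeR's quasi-likelihood fit at an adjusted p under 0.05. The log2 difference was -0.94 for RAD51AP1, -0.85 for FANCL, -0.66 for BRCA1, -0.64 for RBBP8, -0.50 for TOPBP1, -0.45 for CHEK2, -0.45 for BLM, -0.43 for FANCF and -0.40 for UBE2T. It was -0.39 for CHEK1, -0.38 for FANCI, -0.37 for RAD51C, -0.34 for XRCC3, -0.32 for PARP1, -0.30 for BARD1, -0.27 for NBN, -0.25 for MDC1, -0.24 for FANCE, -0.24 for PARP2, -0.23 for FANCG and -0.19 for XRCC5. It was positive for ATRIP (0.56), FANCD2 (0.44) and RNF168 (0.19). The calls of BLM and PARP2 were lost without most single libraries, BLM being at -0.27 without Combination replicate 1. Those of CHEK2, FANCG and BARD1 were lost without some, at -0.36 for CHEK2 and -0.24 for BARD1 without JQ1 replicate 1 and at -0.17 for FANCG without Combination replicate 1. NBN lost its call without JQ1 replicate 1 (-0.22), and MDC1 was at -0.16 without DMSO replicate 3.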

How the results depend on the processing

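Leaving out each library in turn gave 17 to 20 members higher and 5 to 11 lower in CAR against DMSO (5 without CAR replicate 3, 11 without DMSO replicate 3), 40 to 42 lower in JQ1, 39 to 41 lower in Combination against DMSO, and 13 to 20 lower in Combination against JQ1. It gave 3 to 5 higher in Combination against CAR (5 without DMSO replicate 3) and 1 to 5 higher in the interaction (1 without Combination replicate 3, 5 without DMSO replicate 3). Over the 12727 to 12749 genes tested, those fits called 6521 to 7827 in CAR against DMSO and 10320 to 10722 in JQ1. Combination had 10545 to 10914 against DMSO, 5808 to 7456 against JQ1 and 10584 to 11108 against CAR. The interaction had 4256 to 5864. Higher calls made up 47.4% to 53.4% of them. With total count scaling 0 members were higher in JQ1, 1 in Combination against DMSO, and 26 were lower in Combination against JQ1. Of the 10608 genes called in JQ1 under that scaling, 43% were higher. At an adjusted p under 0.01, 4 members were lower in CAR, 2 higher in JQ1, and 1 higher and 13 lower in the interaction. At that threshold 5782 of 12645 genes were called in CAR (48.1% higher), 9887 in JQ1 (49.5%) and 3334 in the interaction (53.6%). With only the contrast's groups, 5 members were higher in Combination against CAR, where 10883 of 12322 genes were called, 49.4% of them higher. Without both libraries that stood apart, 5 members were higher in the interaction, where 5547 of 12708 genes were called, 52.1% of them higher. In Combination against DMSO, ATM ran from -0.12 without DMSO replicate 3 to 0.15 without DMSO replicate 1, and was -0.13 without both. Total count scaling turned ATRIP (-0.04) and RAD50 (-0.13) there, and TP53BP1 (-0.13) in Combination against CAR. Same-numbered libraries did not deviate together (correlations -0.045 to 0.056). What the numbers mark is not given, and the lack of a shared deviation cannot decide whether they mark a common culture or day. With the replicate block, members were called 19 higher and 10 lower in CAR, 4 and 41 in JQ1, 3 and 40 in Combination against DMSO, 8 and 17 in Combination against JQ1, 3 and 42 in Combination against CAR, and 3 and 19 in the interaction. Over all 12645 genes that fit called 7221 in CAR (47.8% higher), 10551 in JQ1 (49.7%) and 10786 in Combination against DMSO (49.9%). It called 6518 in Combination against JQ1 (50.2%), 10786 in Combination against CAR (49.6%) and 4785 in the interaction (52.3%). Scaling moved the share of higher calls among all genes from 49.9% to 39.3% in Combination against DMSO and from 50.1% to 32.9% in Combination against JQ1. The causes were not tested.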

Other observations

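Among the other pathway genes, RAD9A had the largest positive interaction (0.82), followed by the helicase RECQL4 (0.56), with means of 71.4 CPM in DMSO, 65.1 in CAR, 32.1 in JQ1 and 43.2 in Combination. The ligase LIG3 (-0.59), with means of 25.7, 33, 11.3 and 9.63 CPM in the same order, and the fork protection factor TIPIN (-0.48) had the lowest. TIPIN was called higher with CAR alone, at 0.57. In the list of 24 replication and mitosis genes, 9 rose and 4 fell with CAR alone, where 27.3% of all genes were called higher and 30.1% lower. When CAR was added to JQ1, 3 rose and 9 fell, where 26% of all genes were called higher and 25.9% lower.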
